A study of Bos taurus with 6 samples.

Results

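MicroRNAs (miRNAs) best known from neurons, glia or neuroendocrine cells were followed in cultured bovine fat cells. They are 9 known-miRNA entries of the deposited table, chosen by name: bta-miR-7, bta-miR-9-5p, bta-miR-9-3p, bta-miR-124a and bta-miR-124b (1 entry for both names, written miR-124a/b), bta-miR-128, bta-miR-129-3p, bta-miR-137, bta-miR-138 and bta-miR-218, out of 771 known miRNAs and 2213 entries in all. The rule goes by name and uses no measured value, though the set was drawn up with earlier results of these data known, and the species prefix bta- is mostly left out below. Read letter by letter, the rule also takes 5 entries whose names merely begin like miR-124 (miR-1246, both arms of miR-1247, miR-1248 and miR-1249), which makes 14, and these are other miRNAs and are described apart at the end. The entry that names miR-129 and miR-129-5p together is outside the rule and is given only as the partner arm of miR-129-3p.

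Small RNA was sequenced from 3 adipocyte and 3 preadipocyte samples of Holstein cattle at passage 4 to 6. Adipocytes were obtained from cultured preadipocytes, the cells already committed to become fat cells, by induction with a mixture of IBMX, rosiglitazone, dexamethasone and insulin, and the culture medium was F12/DMEM plus antibiotics and 10% FBS. Neither the length of induction nor the animals or cultures behind the replicates are given in the sources used here, so the p-values rest on a spread between libraries that may be technical only.

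MiRNAs are short RNAs that lower the translation and stability of messenger RNAs with a matching site, mainly through the seed near their 5′ end. The members have different best-known settings. MiR-124 is the abundant miRNA of mature neurons and represses non-neuronal transcripts, miR-9 acts in neural progenitors and is unusual in that both of its arms are used, and miR-137 acts in neural stem cells. MiR-128 restrains neuronal excitability in mouse, miR-138 limits dendritic spine size in rat, miR-218 is strong in mouse motor neurons, and miR-129 is enriched in brain. MiR-7 is a miRNA of neurosecretory and pancreatic islet cells. In human adipose-derived stromal cells miR-138 has been described as restraining adipocyte differentiation. Several of these miRNAs are made within longer genes. Their 8 families have 16 gene copies in RefSeq's annotation of ARS-UCD2.0, of which 5 overlap a protein-coding gene: MIR218-1 and MIR218-2 lie in the axon guidance genes SLIT2 and SLIT3, MIR128-1 and MIR128-2 in R3HDM1 and ARPP21, and MIR7-2 in HNRNPK. Copies that yield the same mature miRNA share 1 entry in the table and cannot be told apart.

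The libraries held 14525284 to 22283754 miRNA reads. MiR-21-5p took 64% to 74.1% of these in adipocytes and 77.9% to 80.2% in preadipocytes. Levels are therefore given as CPM, reads of a miRNA per 1000000 miRNA reads after edgeR's TMM scaling. On that scale 3 reads, which is what a count of 0 allows, were 0.142 to 0.244 CPM depending on the library. These limits and the intervals on read ratios below cover counting error only. Preadipocyte replicate 3 stood apart in its reads from exons, introns, repeats and intergenic sequence, at 5.29% of the table, against 18.5% and 18.9% in the other preadipocyte libraries and 8.21% to 12% in adipocytes. A list of 7 adipocyte-associated entries was drawn up with earlier results of these data known, so its direction is not independent support. All 7 had positive log2 differences, against 207 of the 414 miRNAs tested in all. In edgeR's test 2 of them rose (miR-148a and miR-33b), where 3.86% of all tested miRNAs rose. MiR-33b met the low-count filter described below in 3 adipocyte and 2 preadipocyte libraries. It was thus kept through the group in which it was higher, and its call is no support. The count of 2 was 0 with the replicate number as a block and ranged from 0 to 4 with 1 library left out (0 without adipocyte replicate 1 or 2 or preadipocyte replicate 1 or 2, 1 without adipocyte replicate 3, 4 without preadipocyte replicate 3). It was 6 with library totals alone, 5 with DESeq2 and 7 with limma. In these settings 23.4%, 23.2% and 28% of all tested miRNAs were called in either direction, and 88, 49 and 105 of the 414 rose. Their summed level was 6466 to 9659 CPM over the adipocyte libraries and 2824 to 4378 CPM over the preadipocyte libraries. In whole cultures, fewer cells of a type and less of a miRNA per cell cannot be told apart.

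The members differed widely in abundance, from miR-7, still far below miR-21-5p, to miR-137 near the limit of detection. MiR-7 ranked 29th of the 771 known miRNAs by mean level and supplied 87.5% to 89.6% of the summed level of the 9 members in adipocytes and 91.4% to 96.7% in preadipocytes. All 9 together took 0.124% to 0.154% of the miRNA reads in adipocytes and 0.123% to 0.227% in preadipocytes. Next came miR-128 (rank 127) and miR-218 just below it, then miR-9-5p (233), miR-9-3p (309), miR-129-3p (331) and miR-138 (359). MiR-124a/b (557) and miR-137 (745, tied with others) lay at the low end, and the median known miRNA stood at 0.563 CPM. MiR-128 and miR-218 did not differ beyond their spread in adipocytes, at 59.4 ± 4.7 and 61.3 ± 9.4 CPM, while in preadipocytes they stood at 67.1 ± 18.6 and 38.1 ± 11.2 CPM (SD, n = 3 each). MiRNAs are of nearly equal length, so these levels need no length correction. Reads of different miRNAs still need not reflect molecules equally.

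**Figure D1:**
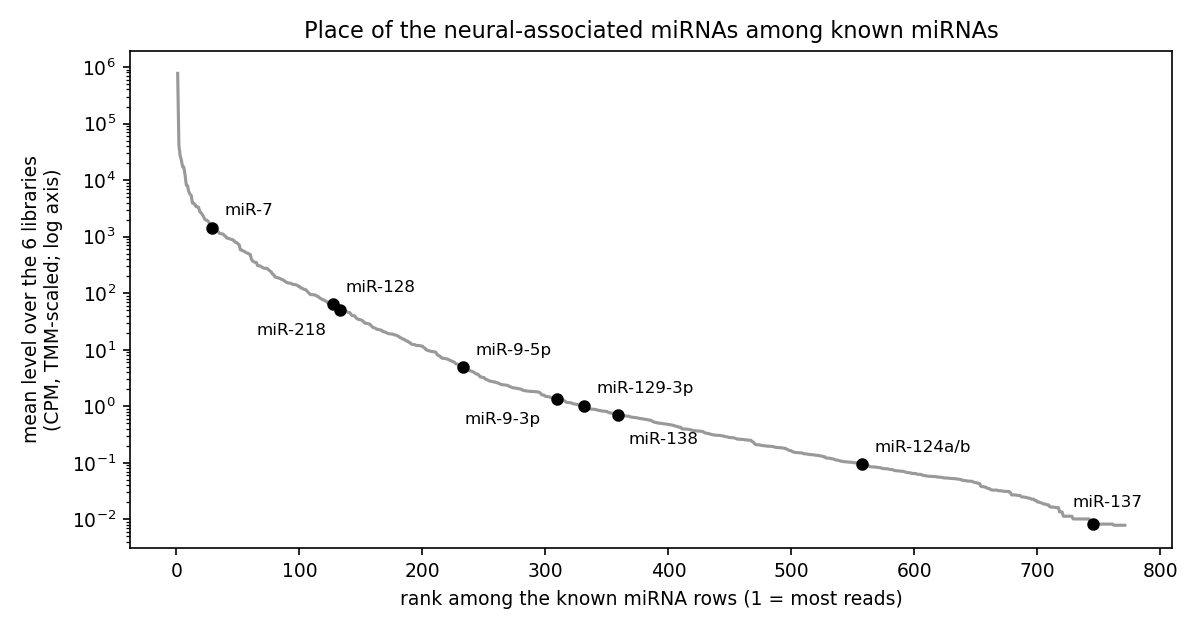
Mean level over the 6 libraries (CPM after TMM scaling, log axis) against rank for the 771 known miRNAs (line), with the 9 neural-associated miRNAs as points. MiR-7 lies at rank 29, and miR-124a/b and miR-137 lie at ranks 557 and 745.

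The entries of miR-124a/b, the miRNA of mature neurons, and of miR-137 were barely detected. MiR-124a/b had 0, 0 and 1 reads in adipocyte replicates 1, 2 and 3, against 1, 4 and 2 reads in preadipocyte replicates 1, 2 and 3. The read ratio of adipocytes over preadipocytes was 0.102 with a 95% counting interval of 0.00225 to 0.791. That interval lies below 1 for the pooled reads, but it leaves out the spread between libraries. All preadipocyte libraries lay above the adipocyte libraries in CPM. The adipocyte libraries without a read allow up to 3 reads, and preadipocyte replicate 1 had 1 read. The order of the single libraries is therefore not resolved at this depth. The entry of bta-miR-137 had 1 read in adipocyte replicate 1 and 0 in the other adipocyte libraries, against 0 in all 3 preadipocyte libraries. Both groups were at or under the limit of 3 reads, and no fold is given. These 2 entries did not pass the low-count filter and were not tested.

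**Figure D2:**
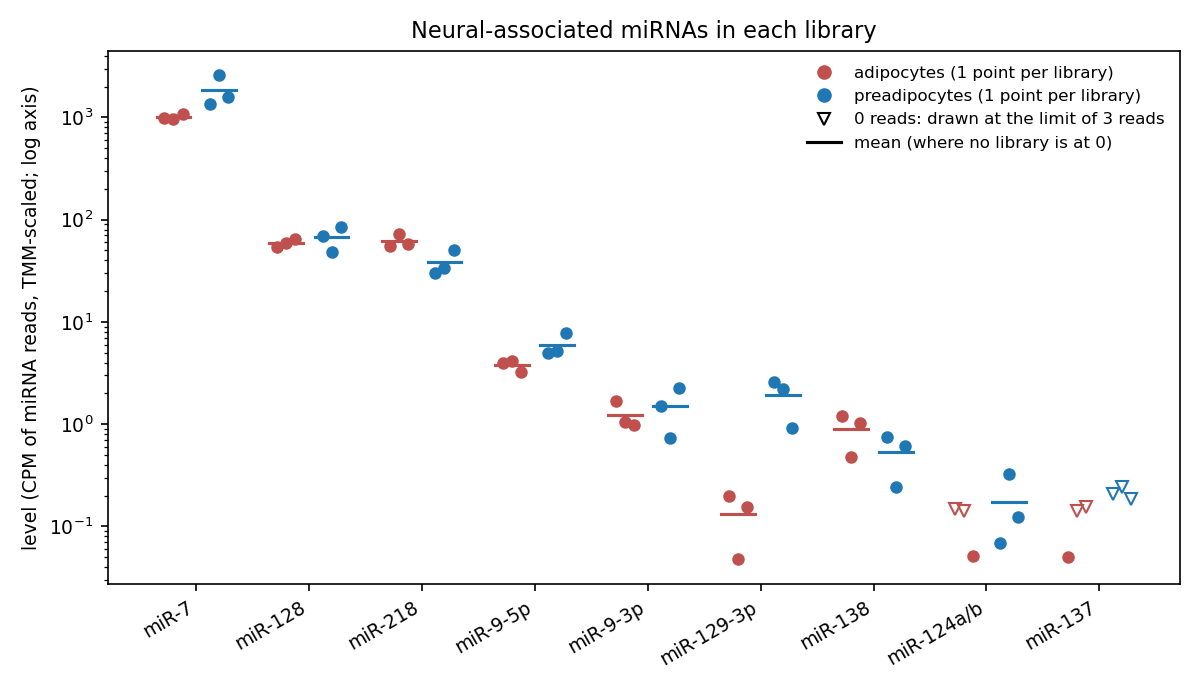
Level of each neural-associated miRNA in each library (CPM after TMM scaling, log axis), adipocytes on the left and preadipocytes on the right of each pair, with 1 point per library, bars at the mean of 3, and open triangles for libraries with 0 reads, drawn at the limit of 3 reads. Among the 7 tested members miR-129-3p shows the widest gap between the groups, at 0.0473 to 0.198 CPM in adipocytes, against 0.917 to 2.6 CPM in preadipocytes.

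The study's comparison asked which miRNAs differ between adipocytes and preadipocytes. Among the 7 members that passed the low-count filter, miR-129-3p fell in adipocytes, none rose, and the other 6 did not pass. The test was edgeR's quasi-likelihood test on the counts of 414 known and predicted miRNAs, with Benjamini-Hochberg (BH) adjustment over all of them and a threshold of 0.05. Over all tested miRNAs 6.28% were called, 3.86% higher and 2.42% lower in adipocytes. The filter asked for at least 0.614 CPM of the library total in 3 libraries. MiR-129-3p met it in the preadipocyte libraries alone and in 0 adipocyte libraries, so an entry kept in this way had to differ, and its call does not count as support for a change of the group. Without adjustment 2 of the 7 had a p under 0.05, miR-129-3p and miR-7, against 34.1% of all tested miRNAs. The median log2 difference of adipocytes over preadipocytes was -0.29 over the 7 and -0.02 over all tested miRNAs, and 2 of the 7 and 207 of the 414 were positive. The groups did not overlap for 4 of the 7 (miR-7, miR-9-5p, miR-129-3p and miR-218), against 44.7% of all tested miRNAs, and for miR-129-3p the filter itself fixed this. With library totals alone they did not overlap for 4 of the 7 as well (miR-128, miR-129-3p, miR-138 and miR-218), against 46.6% of all. No member was called without the low-count filter, with a minimum of 10 CPM, with counts summed by family or with the replicate number as a block, where 2.16%, 19.8%, 7.56% and 0.242% of all tested miRNAs were called.

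MiR-129-3p was a low miRNA in both cell states. The entry of bta-miR-129-3p held 4, 1 and 3 reads in adipocyte replicates 1, 2 and 3, against 38, 27 and 15 reads in preadipocyte replicates 1, 2 and 3. The highest adipocyte library had 4 reads where the lowest preadipocyte library had 15, a separation that the filter required of an entry it kept through preadipocytes alone. The mean level was 0.133 ± 0.078 CPM in adipocytes, against 1.9 ± 0.88 CPM in preadipocytes (SD, n = 3 each). The log2 difference was -3.77 (SE 0.70, edgeR BH-adjusted p = 0.0293). The call of miR-129-3p was lost when any library other than preadipocyte replicate 3 was left out, with log2 differences of -4.16 to -3.38 and edgeR BH-adjusted p-values of 0.0783 to 0.113. Those fits called few miRNAs of any kind, 0.242% when adipocyte replicate 1 or 2 or the second preadipocyte library was left out, 0.966% without preadipocyte replicate 1 and 3.38% without adipocyte replicate 3. Without preadipocyte replicate 3 the log2 difference of miR-129-3p was -4.11 (edgeR BH-adjusted p = 0.0128), where 30% of all tested miRNAs were called. With DESeq2, which called 23.2% of the same miRNAs after the same filter, the adjusted p of miR-129-3p was 2.78e-04, and the limit set by that filter holds for it too.

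Its partner arm gave no clear direction. The entry for miR-129-5p had 33, 1 and 5 reads in adipocyte replicates 1, 2 and 3, against 7, 11 and 7 reads in preadipocyte replicates 1, 2 and 3. The groups overlapped through adipocyte replicate 1, which held 33 of the 39 adipocyte reads of this arm. In the other adipocyte libraries the 5p arm stood at 0.0473 and 0.256 CPM, below the preadipocyte libraries at 0.428 to 0.896 CPM. The 3p arm supplied 10.8%, 50% and 37.5% of the reads of both arms in adipocyte replicates 1, 2 and 3, against 84.4%, 71.1% and 68.2% in preadipocyte replicates 1, 2 and 3. Exact Clopper-Pearson 95% intervals ran up to 25.4%, 98.7% and 75.5% in the adipocytes and down to 70.5%, 54.1% and 45.1% in the preadipocytes, and adipocyte replicate 2 rests on 2 reads in all. The shares of the groups did not overlap, though the intervals of 2 adipocyte libraries reached into the preadipocyte range. The filter kept the 3p entry through preadipocytes alone, which favours a lower 3p share in adipocytes, so the share is not separate support. With both arms summed the log2 difference of the miR-129 family was -1.41 and did not pass (edgeR BH-adjusted p = 0.325).

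**Figure D3:**
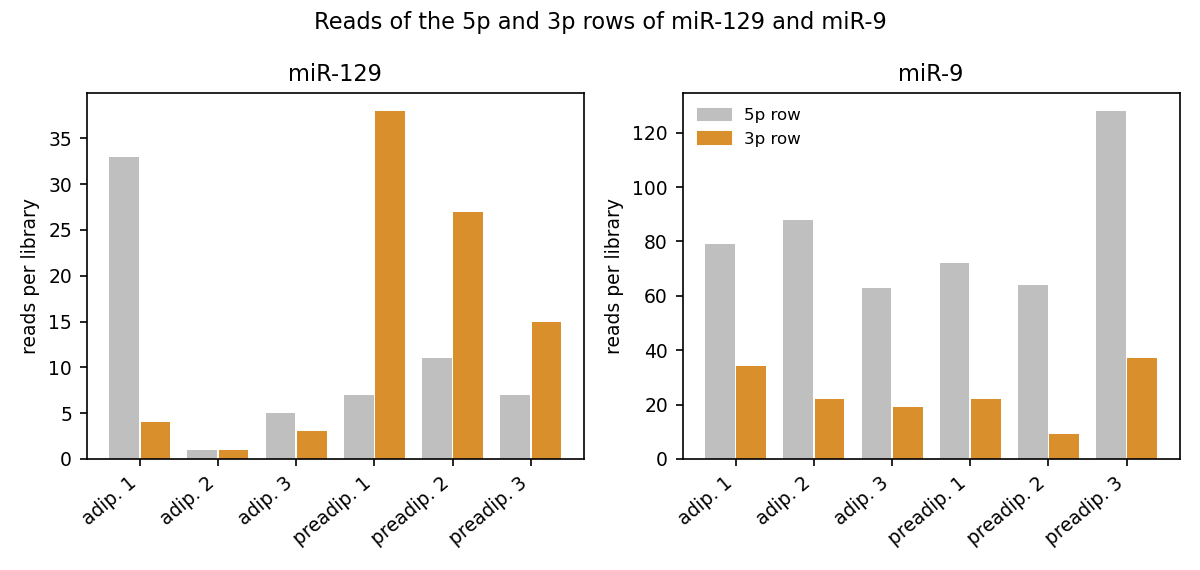
Reads per library of the 5p entry (grey) and the 3p entry (orange) of miR-129 (left) and miR-9 (right), with the 3 adipocyte libraries left of the 3 preadipocyte libraries. For miR-129 the 3p bar exceeds the 5p bar in all preadipocyte libraries and in 0 adipocyte libraries, while for miR-9 the 5p bar is the taller one in all 6.

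MiR-7, the islet and neurosecretory miRNA, was the abundant member. The level of bta-miR-7 was 996, 966 and 1085 CPM in adipocyte replicates 1, 2 and 3, against 1352, 2600 and 1571 CPM in preadipocyte replicates 1, 2 and 3. All adipocyte libraries lay close together and below all preadipocyte libraries, among which replicate 2 was high. The log2 difference of miR-7 was -0.86 (SE 0.30, 95% interval -1.58 to -0.14), with an unadjusted p of 0.0263 that missed the threshold after adjustment (edgeR BH-adjusted p = 0.103). Without preadipocyte replicate 2 the log2 difference of miR-7 was -0.52. Scaled by library totals alone, the groups overlapped for miR-7, with 1109.6 to 1350.3 CPM in adipocytes and 1134 to 2198 CPM in preadipocytes. Relative to the median of all tested miRNAs miR-7 lay at -0.84 with TMM factors and at -0.86 with library totals. A list of 4 other neuroendocrine and sensory miRNAs gave no common direction. MiR-375 of islet and other endocrine cells had 22 reads over the 3 adipocyte libraries and 54 over the 3 preadipocyte libraries. MiR-96, miR-182 and miR-183 had 53, 9 and 8 reads over the adipocyte libraries and 17, 4 and 7 over the preadipocyte libraries. MiR-96, the only one of the 4 tested, did not pass (log2 difference 1.12, edgeR BH-adjusted p = 0.31). It met the low-count filter in the 3 adipocyte libraries and in 0 preadipocyte libraries, so its positive sign gives no direction.

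MiR-218, which is processed from introns of SLIT2 and SLIT3, was the only one of the 3 members above 10 CPM with a positive estimate on the TMM scale; with library totals alone miR-128 was positive too. The level of bta-miR-218 was 54.8, 72.1 and 57.1 CPM in adipocyte replicates 1, 2 and 3, against 29.9, 33.6 and 50.8 CPM in preadipocyte replicates 1, 2 and 3. Every adipocyte library lay above every preadipocyte library, with a small gap to preadipocyte replicate 3. The log2 difference of miR-218 was 0.69 (SE 0.33, 95% interval -0.11 to 1.48, edgeR BH-adjusted p = 0.183). It passed the threshold with library totals alone, at 1.36 (edgeR BH-adjusted p = 0.0384), where the median of all tested miRNAs moved to 0.62 and 23.4% of them were called. Relative to that median miR-218 lay at 0.74 with library totals and at 0.71 with TMM factors.

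MiR-128 did not pass the test, and its group means were close. The level of bta-miR-128 was 54.6, 59.6 and 64 CPM in adipocyte replicates 1, 2 and 3, against 68.6, 47.7 and 84.9 CPM in preadipocyte replicates 1, 2 and 3. The adipocyte libraries fell inside the preadipocyte range. The log2 difference of miR-128 was -0.18 (SE 0.32, edgeR BH-adjusted p = 0.706), and its 95% interval of -0.93 to 0.58 leaves room for changes of either sign. The sign turned with library totals alone (0.47), and relative to the median of all tested miRNAs it was -0.15 with either scaling.

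Both arms of miR-9 were present at low levels, with the 5p arm in excess in every library. MiR-9-5p had 79, 88 and 63 reads in adipocyte replicates 1, 2 and 3, against 72, 64 and 128 reads in preadipocyte replicates 1, 2 and 3. In CPM the adipocyte libraries (3.22 to 4.17) lay below the preadipocyte libraries (4.92 to 7.82). The log2 difference of miR-9-5p was -0.67 (SE 0.30, edgeR BH-adjusted p = 0.17), and it was 0.0064 with library totals alone. Relative to the median of all tested miRNAs miR-9-5p lay at -0.65 with TMM factors and at -0.61 with library totals. MiR-9-3p had 34, 22 and 19 reads in adipocyte replicates 1, 2 and 3, against 22, 9 and 37 reads in preadipocyte replicates 1, 2 and 3. The groups overlapped, and the log2 difference of miR-9-3p was -0.29 (SE 0.52, edgeR BH-adjusted p = 0.704). The 3p arm supplied 24.4% ± 5.16 of the miR-9 reads in adipocytes and 19.4% ± 6.13 in preadipocytes (SD, n = 3 each), a difference within the spread between libraries.

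The entry of bta-miR-138 had 24, 10 and 20 reads in adipocyte replicates 1, 2 and 3, against 11, 3 and 10 reads in preadipocyte replicates 1, 2 and 3. The groups overlapped in CPM, at 0.473 to 1.19 in adipocytes and 0.244 to 0.752 in preadipocytes. The log2 difference of miR-138 was 0.72 (SE 0.61, 95% interval -0.74 to 2.18, edgeR BH-adjusted p = 0.422). MiR-138 met the low-count filter in all 3 adipocyte libraries and in 1 preadipocyte library, so it too was kept through the group in which it was higher.

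**Figure D4:**
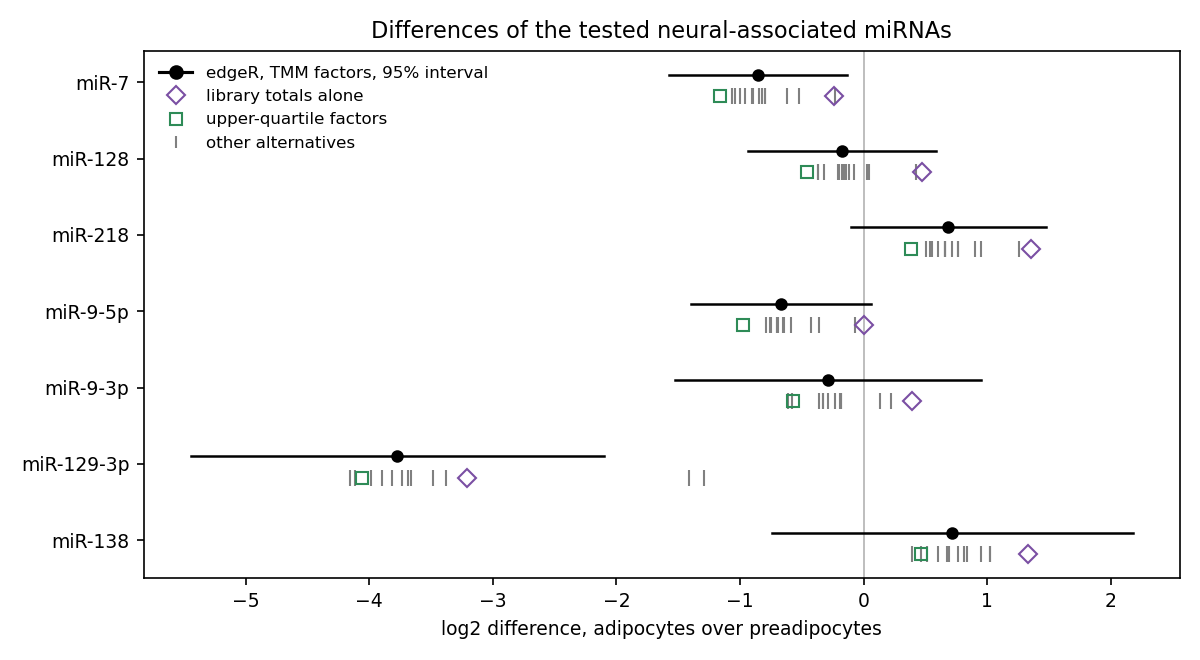
Log2 difference of adipocytes over preadipocytes for the 7 tested members, with the edgeR estimate on TMM factors and its 95% interval (black), library totals alone (diamonds), upper-quartile factors (squares) and the other alternatives (ticks). Library totals alone lie to the right of the TMM estimate for all 7, and the ticks of miR-129-3p near -1.3 and -1.4 are limma on log2(TPM + 0.5) and the sum of both arms.

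The table also holds entries for the same families from Rfam, a collection of RNA families, and whether they share reads with the miRNA entries is not stated in the sources used here. The mir-7 family entry averaged 17.4 ± 2.5 CPM over the adipocyte libraries and 25 ± 8.83 CPM over the preadipocyte libraries (SD, n = 3 each). The mir-218 entry averaged 18.1 ± 3.9 and 15.1 ± 6.07 CPM over the adipocyte and preadipocyte libraries. For both the group means were ordered as in the miRNA entries but the libraries overlapped. The means of the mir-138 entry were ordered the other way, at 0.612 ± 0.212 and 0.91 ± 0.158 CPM over the adipocyte and preadipocyte libraries, and so were those of mir-128, at 7.95 ± 0.58 and 6.61 ± 1.29 CPM, with overlapping libraries in both. The mir-124 entry held 11, 3 and 14 reads in adipocyte replicates 1, 2 and 3, against 0, 2 and 12 reads in preadipocyte replicates 1, 2 and 3, which is more than the 8 reads of miR-124a/b in all 6 libraries. Its means were also ordered the other way from miR-124a/b, at 0.468 ± 0.295 and 0.299 ± 0.385 CPM, with overlapping libraries. The mir-9 entry averaged 2.1 ± 0.72 and 2.18 ± 0.3 CPM and overlapped too. The mir-137 entry held 3 reads in adipocytes and 4 in preadipocytes. The mir-129 entry held 1 read in adipocytes and 4 in preadipocytes, too few to set beside the miR-129-3p difference.

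Other miRNAs enriched in neurons or glia were as scarce as the low members. A list of 13 names had entries for 11 of them, in 13 entries, and 12 of these 13 averaged below 1 CPM. Of 6 that could be tested 0 passed in edgeR's test, where 6.28% of all tested miRNAs were called, and 4 had an unadjusted p under 0.05, against 34.1% of all. DESeq2 called 1 higher (miR-153) and 1 lower (miR-139), against 23.2% of all, and limma on the deposited TPM called 2 higher (miR-153 and miR-219-5p), against 28% of all. MiR-132, miR-153 and miR-219-5p met the low-count filter in the 3 adipocyte libraries and in 0 preadipocyte libraries, so these entries too had to be higher in adipocytes. The most abundant was miR-139, which also occurs outside the nervous system, at 4.96 ± 1.42 CPM in adipocytes, against 20.2 ± 13.7 CPM in preadipocytes (log2 difference -2.03, SE 0.55, edgeR BH-adjusted p = 0.0637). The second, miR-153, a brain-enriched miRNA, had 1.28 ± 0.099 CPM in adipocytes, against 0.236 ± 0.221 CPM in preadipocytes (log2 difference 2.36, SE 0.67, edgeR BH-adjusted p = 0.0664). MiR-338 of oligodendrocytes had 0 reads in adipocytes and 1 in preadipocytes, and miR-488 the same. The summed level of the 13 entries was 8.87 to 11.2 CPM in adipocytes, against 13.3 to 38.9 CPM in preadipocytes. That sum was lower in adipocytes through miR-139 alone, and the other 12 entries together had 4.55 to 5.45 CPM in adipocytes, against 1.87 to 3.83 CPM in preadipocytes. Of the 6 tested, 4 had positive log2 differences, with a median of 1.49. Over all tested miRNAs 207 of 414 were positive, with a median of -0.02. The filter fixed the sign for miR-132, miR-153 and miR-219-5p, so these values give no direction for the list.

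Some single markers of other cell types had lower levels in adipocytes, while other entries of the same lists overlapped. Among all tested miRNAs 44.7% had groups that did not overlap, so a gap of this kind was common. Endothelial miR-126-3p had 42.2 to 66.8 CPM in adipocytes, against 112 to 446 CPM in preadipocytes, while its other arm miR-126-5p overlapped, at 0.805 to 1.18 CPM in adipocytes and 0.814 to 9.17 CPM in preadipocytes. Of 5 blood entries miR-451 had 0.189 to 0.869 CPM in adipocytes, against 1.77 to 4.4 CPM in preadipocytes. MiR-451 met the low-count filter in 2 adipocyte and 3 preadipocyte libraries, so it was kept through the group in which it was higher. The other 4 blood entries summed to 0.331 to 0.397 CPM in adipocytes and 0.122 to 0.684 CPM in preadipocytes, and miR-142-3p and miR-144 had reads in adipocytes alone (1 and 4). Neither miR-126-3p nor miR-451 passed (edgeR BH-adjusted p = 0.0637 for each). DESeq2 called miR-451 and 1 of the 2 miR-126 arms lower, where 23.2% of all tested miRNAs were called. Upper-quartile factors called 1 miR-126 arm lower but not miR-451, where 11.8% of all were called. Limma and library totals called no blood or endothelial entry. Of 4 striated muscle entries, miR-133a passed, at 1.63 ± 0.34 CPM in adipocytes, against 5.99 ± 1.46 CPM in preadipocytes. Its log2 difference was -1.88 (SE 0.34, edgeR BH-adjusted p = 0.0293), where 2.42% of all tested miRNAs fell. This call was lost with the replicate number as a block, where 0 miRNAs were called lower. The same held without adipocyte replicate 1 or 2 or preadipocyte replicate 2. DESeq2, limma, library totals and upper-quartile factors each called 1 of the 2 tested muscle entries lower. MiR-1 overlapped and did not pass (edgeR BH-adjusted p = 0.693). MiR-133b and miR-206 (2 and 9 reads in adipocytes, 18 and 25 in preadipocytes) were not tested. The 5 epithelial entries averaged below 1 CPM each and were not tested. The part of these cell types in the miR-129-3p result was not tested.

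The pattern over the 6 libraries was compared with that of the other 364 tested known miRNAs for the 3 members above 10 CPM, as the root mean square difference of log2(CPM + 0.5) centred on each miRNA's mean. The nearest to miR-7 were miR-652 (0.20) and miR-7859 (0.20), the nearest to miR-128 were miR-361 (0.12) and miR-2285cl (0.12), and the nearest to miR-218 were miR-411b (0.13) and miR-2284ab (0.15). None of these 6 passed the test between the groups, with log2 differences of -0.62 for miR-652 and 0.74 for miR-411b. MiR-2285cl averaged 0.72 CPM in adipocytes and 1.04 CPM in preadipocytes, where the added 0.5 shrinks its differences. Its edgeR log2 difference was -0.54, against -0.18 for miR-128.

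Of the 5 entries with other numbers, miR-1246 and miR-1249 were tested. MiR-1246 had 55, 123 and 90 reads in adipocyte replicates 1, 2 and 3, against 9, 8 and 28 reads in preadipocyte replicates 1, 2 and 3 (log2 difference 2.12, SE 0.54, edgeR BH-adjusted p = 0.0637). MiR-1249 had 271, 73 and 188 reads in adipocyte replicates 1, 2 and 3, against 696, 529 and 498 reads in preadipocyte replicates 1, 2 and 3 (log2 difference -2.19, SE 0.54, edgeR BH-adjusted p = 0.0637). Neither passed, and the groups did not overlap for either. MiR-1246 met the low-count filter in the 3 adipocyte libraries and in 1 preadipocyte library. MiR-1247-3p, miR-1247-5p and miR-1248 had 0, 3 and 1 reads over the adipocyte libraries and 6, 13 and 4 over the preadipocyte libraries and were not tested.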

How the data were processed

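The count columns are whole numbers of small RNA reads (RNA of 18 to 30 nt) that the authors deposited without normalization, per the file headers. Per the submitters' processing notes Bowtie2 was used; its version, the genome build, the miRNA release and the handling of multiply matching reads are not stated there or in the labels. The authors' deposited TPM column proved to be the count over a library-wide constant, with 0 written as 0.001.

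Columns were matched to samples by title. Counts of 771 known and 108 predicted miRNAs were fitted with edgeR 4.0.16 in R 4.3.3 (TMM, filterByExpr, glmQLFit, glmQLFTest, group only, two-sided). The 4 genome-feature rows, which name no gene (5.29% to 18.9% of the table), and the Rfam and piRNA rows stayed out. Standard errors are the log2 difference over the root of F. Alternatives were DESeq2 1.42.0, limma 3.58.1 on log2(TPM + 0.5), other scalings, filters and row sets, family sums, each library left out and the replicate numbers as a block. The fit was tested on simulated counts. Read-ratio intervals are exact binomial (SciPy 1.17.1). Every member is named, and for those above 10 CPM the 2 nearest patterns. The members and lists were chosen with earlier results of these data known.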

Additional observations from a re-analysis of the deposited data

How the results depend on the processing

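The count of neural-associated miRNAs past the threshold was 1 of 7. It was 2 with library totals alone and with limma on log2(TPM + 0.5), where miR-218 joined miR-129-3p (miR-218 at 1.36 and 1.26). It was 0 without the low-count filter, with a minimum of 10 CPM (3 tested), with family sums and with the replicate block. It ranged from 0 to 1 with 1 library left out. The log2 difference of miR-129-3p was -3.69 without the filter (edgeR BH-adjusted p = 0.0546), -1.41 summed over its family and -3.74 with the replicate block, and -4.16 to -3.38 with 1 library left out. Over all tested miRNAs the count of 26 was 49 with upper-quartile factors, 97 with library totals alone, 96 with DESeq2, 116 with limma, 43 with a minimum of 10 CPM, 59 with known miRNAs only, 1 with the replicate block and 1 to 124 with 1 library left out. The highest of these came without preadipocyte replicate 3 (124), and the count was 14 without adipocyte replicate 3. It was 4 without preadipocyte replicate 1 and 1 without any of the remaining 3 libraries.

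Signs turned for miR-128 with library totals (0.47), limma (0.42), family sums (0.045) and without preadipocyte replicate 3 (0.030, with -0.37 to 0.030 over the fits without 1 library), for miR-9-3p with library totals (0.39), limma (0.22) and without preadipocyte replicate 3 (0.13, range -0.61 to 0.13), and for miR-9-5p with library totals (0.0064). None of these had passed the threshold. The cause was not tested, except that library totals moved the median of all tested miRNAs to 0.62 and limma to 0.46. MiR-7 and miR-218 kept their sign in all alternatives run, and miR-129-3p and miR-138 did in all in which they were tested, which leaves out the minimum of 10 CPM. The replicate numbers share no stated origin: deviations from the group means of same-numbered libraries correlated at 0.04, -0.34 and 0.05 over the tested miRNAs, and 0 of 6 libraries correlated best with their own number. Depth limits miR-124a/b and miR-137, whose counts never exceeded 4 reads in a library.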
